A study of Argopecten irradians concentricus with 9 samples.

Results

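The innate immune receptors and effectors described here are the 171 of 28864 gene models whose best Swiss-Prot match carries 1 of 10 name words: complement C1q, toll-like receptor, peptidoglycan, lysozyme, interferon, interleukin, myeloid differentiation, tumor necrosis factor, GTPase IMAP or macrophage mannose receptor. They were measured by RNA sequencing of the adductor muscle, which closes the shell, in the bay scallop Argopecten irradians concentricus at 1 year of age. Scallops were kept at low, high or room water temperature, with 3 libraries per temperature and 9 in all. The labels give neither degrees nor duration, and they describe RNA isolated tank by tank without saying whether the libraries of a temperature came from separate tanks or animals, so the p-values cover spread among the sequenced libraries, which may be technical. Each name is that of the Swiss-Prot protein most alike in sequence, and the words also took in proteins with other main roles, such as the RNA-binding interleukin enhancer-binding factor 2 homolog.

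Bivalves have no antibodies and rely on innate immunity, carried largely by circulating hemocytes and by proteins secreted into the hemolymph. Peptidoglycan recognition proteins (PGRPs) bind bacterial cell wall, toll-like receptors (TLRs) pass a signal through the adaptor MyD88 and the kinase IRAK-4 to NF-kappa-B, and C1q-domain proteins bind sugars and other surface patterns. Tumor necrosis factor (TNF) ligands and interleukin receptors carry signals between cells, interferon regulatory factors (IRFs) are transcription factors, and GTPases of the IMAP family are linked in vertebrates to lymphocyte survival and in molluscs to the response to infection. Interferon itself is known mainly as a cytokine of vertebrates, so an interferon name here points to the vertebrate protein matched.

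Most of the repertoire was at low level in this muscle. Of the 171 models, 48 had no read in any of the 9 libraries (28.1%, against 23.0% of all gene models and 12.1% of those with a Swiss-Prot name). A further 86 had reads but a mean below 1 FPKM. FPKM are fragments per kilobase of gene model, which sets levels per length, scaled here by a size factor per library. The remaining 37 passed the filter of a mean of at least 1 FPKM and were tested (21.6%, against 29.9% of all gene models and 40.4% of those with a Swiss-Prot name). For the 48 models with no read, a count of 0 allows up to 3 reads over the 9 libraries, a level of 0.00393 to 0.102 FPKM depending on their length, which covers counting error only. The tested member nearest to the filter was a PGRP 1 match at a mean of 1.11 FPKM, and the nearest untested one a TLR Tollo match at 0.985 FPKM.

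Large families did not always mean much RNA: the TLR class with 50 models supplied 2.35% of the summed FPKM of the members, the complement C1q class with 26 models 0.179% and the interferon-named class with 31 models 27.2%. The 26 complement C1q models, of which 6 also carry the TNF word, had 109 reads in all libraries together, 15 of them had none, and none reached 1 FPKM. The highest of them, the C1q-like protein 4 match evm.TU.Contig420.83, averaged 0.299 FPKM, and the next, the C1q-like protein 2 match evm.TU.Contig1317.22, 0.169 FPKM. Both lysozyme 3 models, which match an enzyme that cuts bacterial cell wall, and the single interleukin-17A model, a match to a secreted cytokine, had no reads. Of 50 TLR models 17 had no reads and 3 were tested, and of 25 GTPase IMAP models 7 had none and 2 were tested. In contrast, 13 of 31 interferon-named models, 8 of 14 TNF-named models and 4 of 6 interleukin-named models were tested.

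**Figure D1:**
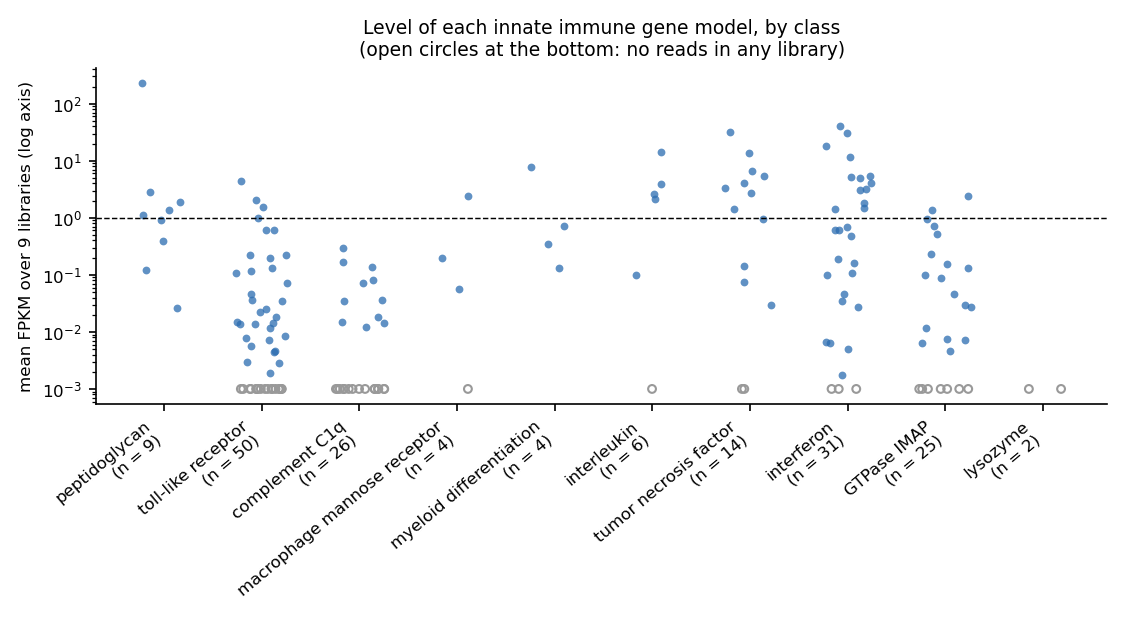
Mean FPKM over the 9 libraries (log axis) of each of the 171 gene models, by name class, with the 48 models without reads as open circles at the bottom and the filter of 1 FPKM as a dashed line. The PGRP at 228 FPKM stands above all others, and the complement C1q class lies wholly below the line.

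Summed over members, a single PGRP supplied 46.0% of the mean FPKM and the 8 members above 10 FPKM together 78.5%. The members took between 0.045% and 0.0953% of the assigned reads of a library. In the TLR class, 29 of the 50 matches had both a TIR domain (the intracellular signalling domain of TLRs) and leucine-rich repeats (the ligand-binding part), 20 had a TIR domain without annotated repeats, and 1 had neither. The annotated domains bear out the full TLR name for the 29 and not for the others. Of the 29 with both domains 23 had reads and 1 was tested. Of the 20 with a TIR domain alone 10 had reads and 2 were tested, among them the most abundant TLR match.

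Some members of a family lay side by side. In the order of the table, 53 of the 171 models (31.0%) formed 21 runs of neighbouring members, each within 1 name class, and 16 of the 21 runs were on 1 strand. Levels within a run differed widely. On Contig220, from 785129 to 813858 on the minus strand, 4 PGRP models follow each other, with means of 0.121, 0.0259, 0.909 and 228 FPKM. On Contig514 the IFI44 match evm.TU.Contig514.39 at 18.1 FPKM sits between IFI44 matches at 0.68 and 0.618 FPKM. The largest run, 5 TLR models on Contig928, had a highest mean of 0.00573 FPKM. Neighbours that resemble each other can share reads, and how the counting treated reads with several matches is not given in the sources used here, so the split between such copies is uncertain.

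**Figure D2:**
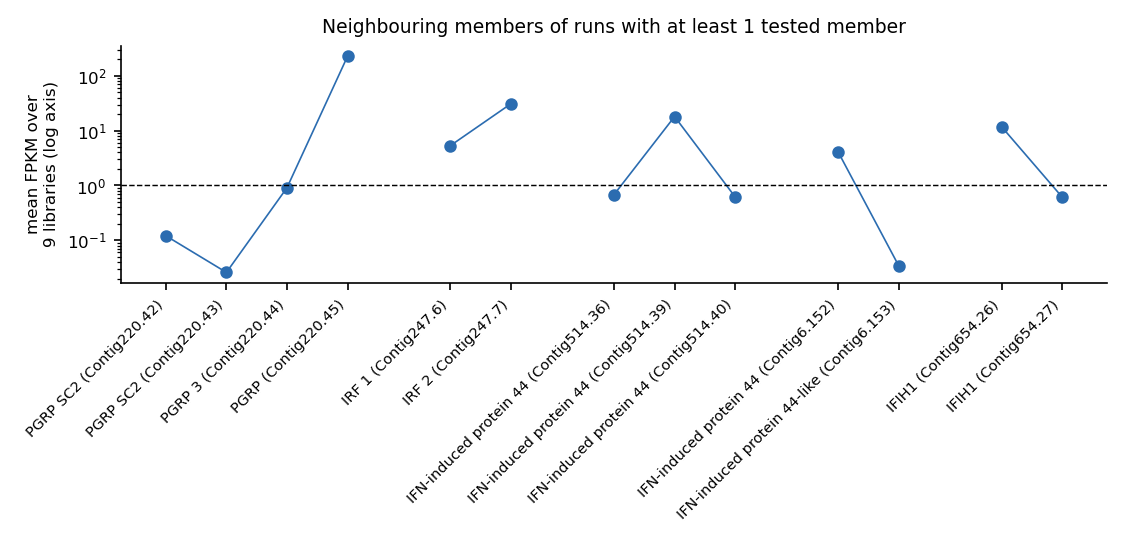
Mean FPKM over the 9 libraries (log axis) of neighbouring members in the runs that hold at least 1 tested member, joined by lines in the order of the contig, with the filter of 1 FPKM dashed. Apart from the IRF pair at 5.35 and 31.1 FPKM, each run has 1 model above the line and the rest below it.

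Assigned reads were 11716140 to 16229040 per library. 2 libraries stood apart. The third high temperature library scored 52 on principal component 1 (the other 8 from -28.5 to 13.8), and the third low temperature library scored -42.9 on component 2 (the other 8 from -12.8 to 21.1). Adductor muscle marker models summed to 62940 to 172185 FPKM in a library. The FPKM of all gene models summed to 492312 in low temperature replicate 1 and 1157870 in high temperature replicate 3, the lowest and highest totals. The marker sums are therefore not shares of a library. Sums were 4.09 to 13.2 FPKM for cilia, 7.05 to 20.9 FPKM for shell and mantle (lowest in the low temperature libraries) and 34 to 52.5 FPKM for nerve markers. Gonad markers summed to 9.04 to 17.7 FPKM in the low, 8.47 to 11.6 in the high and 13.5 to 18.8 in the room temperature libraries. Their most abundant model, a putative vitellogenin receptor match, lay below all room temperature libraries in both other groups (limma adjusted p = 0.515 for low and 0.357 for high minus room). The other 2 tested gonad models lay above 0 in both comparisons. The part of these markers was not tested.

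With the test run over all 8624 gene models that passed the filter, 0 of the 37 tested members were called in any of the 3 comparisons at a limma adjusted p under 0.05. For low against room temperature 0% of all tested genes were called higher and 0.151% lower, for high against room 0% and 0%, and for high against low 0.151% and 0.0116%. At an unadjusted p under 0.05, 2 members were higher and 4 lower at low than at room temperature, where 3.35% and 4.81% of all tested genes were. The counts were 4 higher and 1 lower for high against room (4.7% and 4.87% of all genes), and 5 higher and 1 lower for high against low (6.42% and 5.45%). Single libraries and the scaling moved these small unadjusted counts. The 4 lower for low against room were 1 with scaling to the summed FPKM (2.08% of all genes) and 2 with scaling to the upper quartile (3.55%), and the single lower for high against low was 0 with scaling to the summed FPKM (2.11%). The single lower for high against room was 2 with the replicate block (5.37%) and with array weights (7.97%). With libraries left out, the 4 lower for low against room were 1 without low temperature replicate 1 (4.24% of all genes). They were 2 without room temperature replicate 1 (3.69%) or 2 (4.65%). The 4 higher for high against room were 2 without high temperature replicate 1 (3.9%) or 2 (4.75%) or room temperature replicate 1 (3.85%). They were 5 without room temperature replicate 2 (3.28%) and with scaling to the upper quartile (5.1%). The single lower for high against room was 2 without high (5.73%) or room (5.09%) temperature replicate 3. For high against low the single lower was 2 without the first (5.02%) and 0 without the third (5.06%) high temperature library. The 5 higher for high against low were 7 without low temperature replicate 2 (4.96%). They were 6 without high temperature replicate 1 (5.98%) or 3 (5.66%) and with scaling to the summed FPKM (4.21%). With voom, limma's method for read numbers, on the reads recovered from the FPKM, 0 members were called as well, where 0.0116% of all tested genes were called higher and 0.0812% lower for low against room, 0% and 0% for high against room, and 0.197% and 0.0116% for high against low. At an unadjusted voom p under 0.05 the members higher and lower were 2 and 3 for low against room (3.94% and 4.64% of all genes), 4 and 1 for high against room (5.13% and 4.43%), and 5 and 1 for high against low (6.28% and 5.29%). The median log2 difference of the 37 members was -0.20 for low minus room (all tested genes -0.04), -0.03 for high minus room (all tested genes -0.03) and 0.12 for high minus low (all tested genes 0.01). Low minus room and high minus room share the room temperature libraries.

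**Figure D3:**
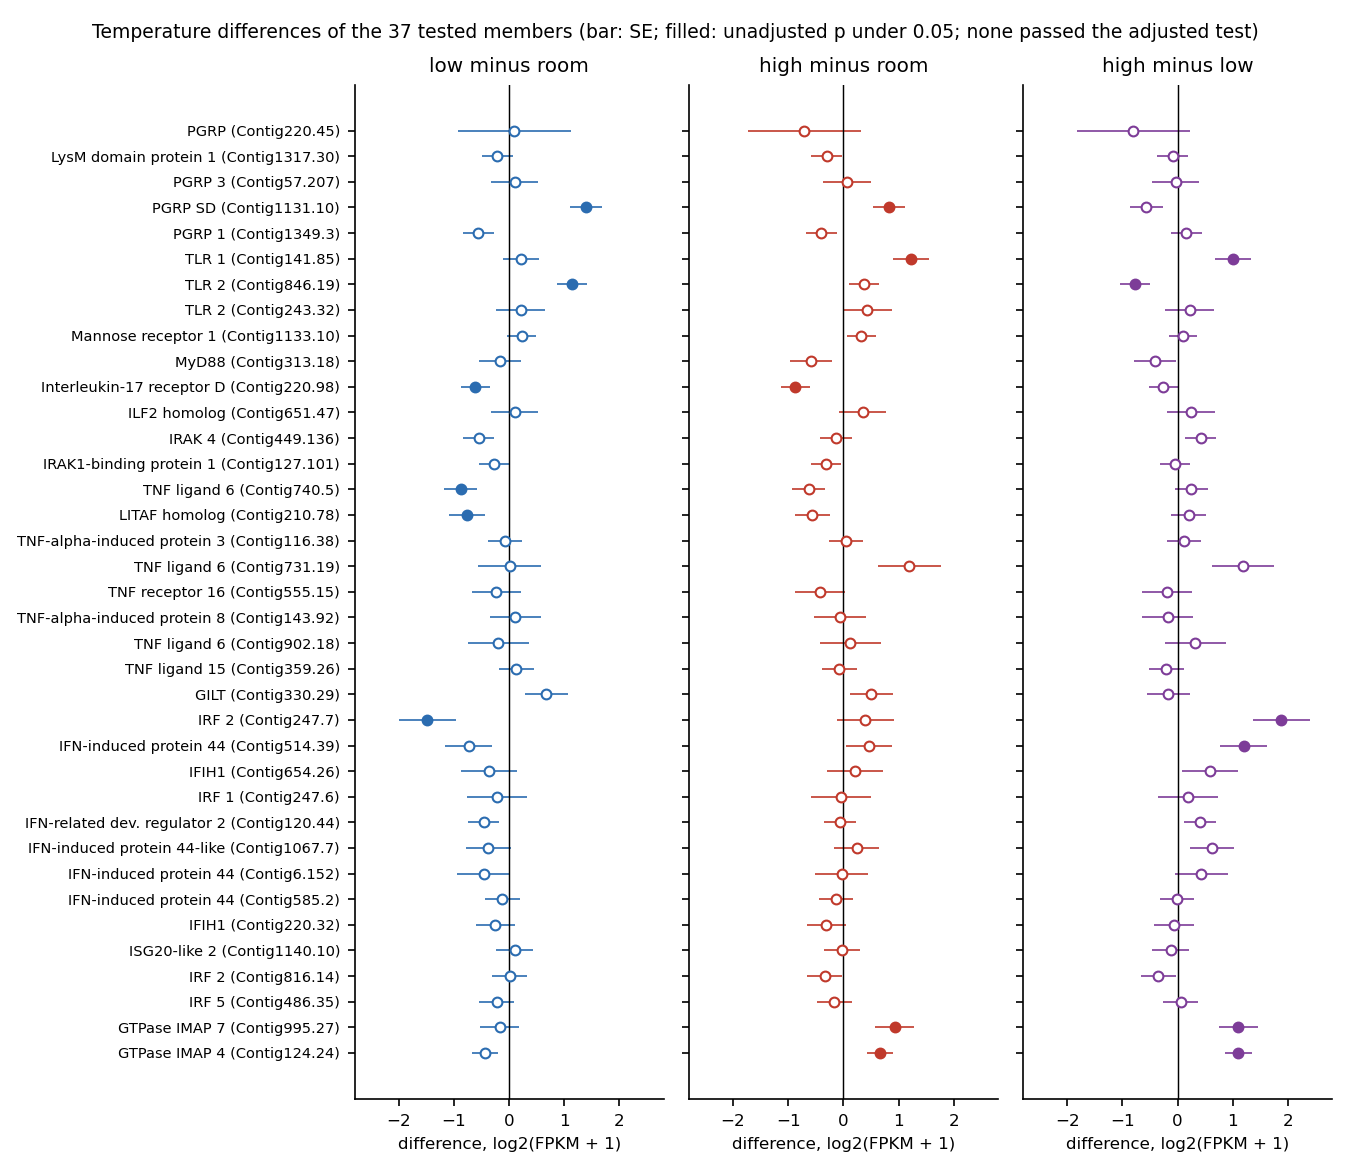
Difference in log2(FPKM + 1) with its SE (bars) for the 37 tested members in the 3 comparisons, ordered by class; filled points have an unadjusted p under 0.05. The filled points are PGRP SD, TLR 1 and TLR 2 matches, interleukin-17 receptor D, a TNF ligand 6, a LITAF homolog, an IRF 2, an IFI44 and both GTPases.

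Among recognition receptors, the abundant PGRP varied widely within each temperature, and a PGRP SD match and a TLR 2 match had their highest mean at low temperature. PGRP evm.TU.Contig220.45, on Contig220 from 809672 to 813858 and annotated with an amidase domain, was at 76.4, 423 and 260 FPKM in the low temperature libraries, 209, 17.1 and 421 FPKM in the high temperature libraries and 342, 98.2 and 206 FPKM in the room temperature libraries. Every temperature held both high and low libraries, the highest library was 24.7 times the lowest, and 99.8% of tested genes had a smaller or equal spread within groups. Its difference was 0.09 on the log2 scale for low minus room (SE 1.02, limma adjusted p = 0.986) and -0.71 for high minus room (SE 1.02, limma adjusted p = 0.866). Single libraries decided the value for high minus room: over the alternatives it ran from -1.64 without high temperature replicate 3 to 0.63 without high temperature replicate 2. The value for low minus room ran from -0.43 without low temperature replicate 2 to 0.79 without low temperature replicate 1, and it was also below 0 without low temperature replicate 3 or room temperature replicate 2.

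The PGRP SD match evm.TU.Contig1131.10 had the lowest p of the members for low minus room. It was at 1.70, 2.43 and 3.34 FPKM in the low temperature libraries, 1.94, 1.42 and 0.751 FPKM in the high temperature libraries and 0.135, 0.689 and 0.158 FPKM in the room temperature libraries. All 3 low and all 3 high temperature libraries lay above all 3 at room temperature. Low and high temperature libraries overlapped (-0.56 for high minus low, SE 0.295, limma adjusted p = 0.495). The log2 difference was 1.39 for low minus room (SE 0.295, limma adjusted p = 0.16) and 0.83 for high minus room (SE 0.295, limma adjusted p = 0.424). Few reads stand behind it: 28, 29 and 32 in the low, 34, 18 and 6 in the high and 2, 9 and 2 in the room temperature libraries. On the reads, without the pseudocount of 1, the voom log2 difference was 3.03 for low minus room (voom adjusted p = 0.28). With array weights low minus room passed (limma adjusted p = 0.0455), and over all alternatives its adjusted p ran from 0.0455 to 0.48.

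The TLR matches differed in which temperature was highest. The TLR 2 match evm.TU.Contig846.19, which has both TIR domain and repeats, was at 4.53, 3.17 and 2.79 FPKM in the low temperature libraries, 2.13, 1.73 and 1.05 FPKM in the high temperature libraries and 1.38, 1.16 and 0.58 FPKM in the room temperature libraries. Its low temperature libraries lay above all others (1.14 on the log2 scale for low minus room, SE 0.271, limma adjusted p = 0.225; -0.77 for high minus low, SE 0.271, limma adjusted p = 0.294). The TLR 1 match evm.TU.Contig141.85, with a TIR domain and no annotated repeats, was at 5.33, 8.79 and 8.35 FPKM in the high, 3.73, 2.32 and 3.53 FPKM in the low and 3.38, 1.23 and 3.64 FPKM in the room temperature libraries. Here the high temperature libraries lay above all others (1.23 for high minus room, SE 0.325, limma adjusted p = 0.338; 1.01 for high minus low, SE 0.325, limma adjusted p = 0.257). The third tested TLR, a TLR 2 match on Contig243, ranged from 0.183 to 3.91 FPKM with groups that overlapped. The list of digestive gland name words summed to 38.1 to 43.8 FPKM in the low, 29.9 to 34.9 FPKM in the high and 25.8 to 30 FPKM in the room temperature libraries, so this sum moved with the PGRP SD and TLR 2 matches. The values go against the name of that list, since its most abundant models, caught by the word trypsin, are no digestive enzymes: 2 matches to inter-alpha-trypsin inhibitor heavy chain H3 had means of 11.9 and 8.70 FPKM and 2 neurotrypsin matches 4.13 and 3.10 FPKM. Of the 55 models 16 had no reads and 5 were tested, and the alpha-amylase, chymotrypsin and endoglucanase models had means of at most 0.136, 0.54 and 0.052 FPKM. The macrophage mannose receptor match evm.TU.Contig1133.10, an endocytic lectin, averaged 2.53 ± 0.78 FPKM at low, 2.74 ± 0.457 at high and 2.01 ± 0.615 at room temperature (SD, n = 3 each), with overlapping groups. Its next model, evm.TU.Contig1700.1, was at most at 0.878 FPKM.

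**Figure D4:**
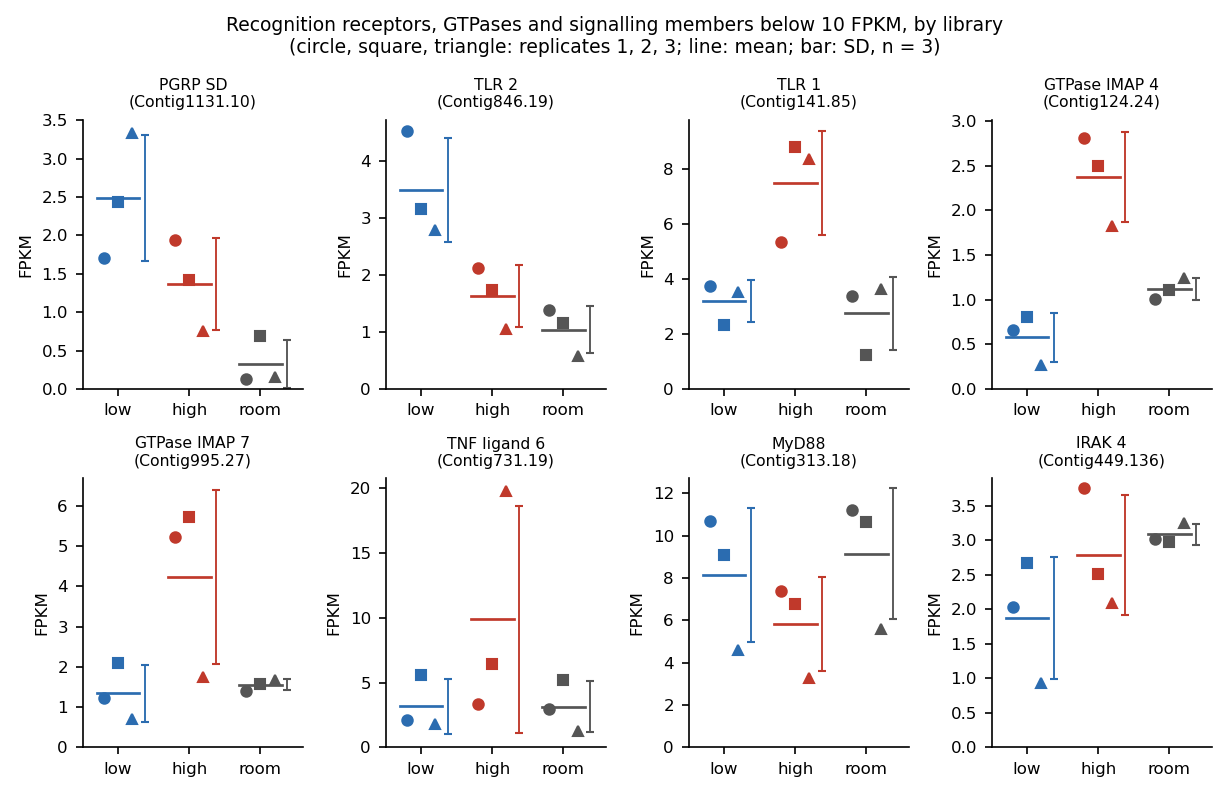
FPKM by library of 8 members below a mean of 10 FPKM, with points for replicates 1 to 3 of low, high and room temperature, lines for group means and bars for the SD (n = 3). The PGRP SD match is at 0.135 to 0.689 FPKM in the room temperature libraries, below all others, and the GTPase IMAP 4 match at 1.82 to 2.81 FPKM in the high temperature libraries, above all others.

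Downstream of the TLRs, the adaptor MyD88 had 4 models and 1 of them had the highest level. The model evm.TU.Contig313.18 was at 10.7, 9.10 and 4.59 FPKM in the low, 7.36, 6.78 and 3.27 FPKM in the high and 11.2, 10.6 and 5.59 FPKM in the room temperature libraries. Replicate 3 was the lowest library in each group and the groups overlapped (limma adjusted p = 0.942 for low minus room, 0.66 for high minus room and 0.744 for high minus low). The others, evm.TU.Contig359.59, evm.TU.Contig134.12 and evm.TU.Contig517.52, had means between 0.132 and 0.712 FPKM. The IRAK-4 match evm.TU.Contig449.136, a tested member of the interleukin-named class that is singled out here after its values were seen, was at 2.03, 2.68 and 0.931 FPKM in the low, 3.76, 2.52 and 2.09 FPKM in the high and 3.02, 2.99 and 3.26 FPKM in the room temperature libraries. Its low temperature libraries lay below those at room temperature (-0.55, SE 0.283, limma adjusted p = 0.649).

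A list of 50 further signalling genes of these pathways, such as NF-kappa-B, its inhibitors, TNF receptor-associated factors, TBK1 and JAK and STAT matches, had 33 tested models. By limma 0 were called in any comparison. At an unadjusted p under 0.05 there were 0 higher and 2 lower for low against room (3.35% and 4.81% of all tested genes). The counts were 1 and 1 for high against room (4.7% and 4.87%), and 3 and 1 for high against low (6.42% and 5.45%). NF-kappa-B p105, precursor of a subunit of that transcription factor, had 3 matches, of which 1 was singled out after its values were seen. This match, evm.TU.Contig501.37, was at 51.6, 58.7 and 33.8 FPKM in the high, 13.6, 16.6 and 7.91 FPKM in the low and 69.7, 26.6 and 21.5 FPKM in the room temperature libraries. Its low temperature libraries lay below all others (1.86 for high minus low, SE 0.439, limma adjusted p = 0.146; -1.42 for low minus room, SE 0.439, limma adjusted p = 0.368). The p105 match evm.TU.Contig225.94 went the other way, with high below low temperature libraries (-0.79 for high minus low, SE 0.296, limma adjusted p = 0.319). In the third, evm.TU.Contig412.93, high lay above low temperature libraries (0.47, SE 0.237, limma adjusted p = 0.476). The median log2 differences of the list were 0.02 for low minus room, 0.03 for high minus room and -0.05 for high minus low. A list of 134 other humoral and recognition genes, such as ficolins, galectins, C-type lectins and defensins, had 16 tested models, of which 0 were called by limma, with medians of 0.12, 0.12 and 0.07. At an unadjusted p under 0.05 there were 1 higher and 1 lower, 1 and 0, and 1 and 0 in the same order of comparisons, beside the same shares of all genes. The most abundant of these was big defensin, an antimicrobial peptide, at 177, 645 and 92.8 FPKM in the low, 238, 654 and 210 FPKM in the high and 824, 484 and 266 FPKM in the room temperature libraries. High temperature replicate 2, the lowest library for the abundant PGRP, was the highest of its group for big defensin.

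Among cytokines and their receptors, the most abundant TNF ligand and the interleukin-17 receptor D match were lower in the low temperature libraries than at room temperature without passing the test. TNF ligand superfamily member 6 (Fas ligand, which binds a death receptor) evm.TU.Contig740.5 was at 25.8, 18.7 and 24.9 FPKM in the low, 23.4, 25.8 and 34.4 FPKM in the high and 46.2, 57.1 and 29.9 FPKM in the room temperature libraries. Low and room temperature libraries did not overlap (-0.88, SE 0.298, limma adjusted p = 0.434), and high and room temperature libraries did (-0.62, SE 0.298, limma adjusted p = 0.544). Interleukin-17 receptor D evm.TU.Contig220.98, which in vertebrates also restrains fibroblast growth factor signalling, was at 10.1, 12.4 and 16.1 FPKM in the low, 9.35, 8.57 and 14 FPKM in the high and 21.6, 17.9 and 20.3 FPKM in the room temperature libraries. All libraries of both other temperatures lay below all 3 at room temperature (-0.61 for low minus room, SE 0.267, limma adjusted p = 0.59; -0.87 for high minus room, SE 0.267, limma adjusted p = 0.357).

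Among the other TNF-named members, the LITAF homolog also had a lower mean at low than at room temperature. A further TNF ligand 6 match, evm.TU.Contig731.19, was at 3.34, 6.46 and 19.8 FPKM in the high temperature libraries, 2.12, 5.61 and 1.77 FPKM in the low temperature libraries and 3, 5.19 and 1.27 FPKM in the room temperature libraries. Its difference of 1.20 for high minus room (SE 0.569, limma adjusted p = 0.543) was 0.57 (limma adjusted p = 0.679) once the third high temperature library, which stands apart, was left out. TNF-alpha-induced protein 3 (A20, a brake on NF-kappa-B), evm.TU.Contig116.38, averaged 6.27 ± 1.61 FPKM at low, 7.07 ± 2.57 at high and 6.59 ± 1.3 at room temperature (SD, n = 3 each). The LITAF homolog evm.TU.Contig210.78, a membrane protein of late endosomes in vertebrates, averaged 10.7 ± 4.05 FPKM at low, 12.2 ± 3.73 at high and 18.4 ± 4.28 at room temperature, with overlapping libraries (-0.76 for low minus room, SE 0.322, limma adjusted p = 0.576). It was 1 of 5 models of that name and the 1 that passed the filter. In the interleukin-named class, the interleukin enhancer-binding factor 2 homolog evm.TU.Contig651.47 averaged 3.78 ± 2.11 FPKM at low, 4.73 ± 3.15 at high and 3.11 ± 0.423 at room temperature.

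**Figure D5:**
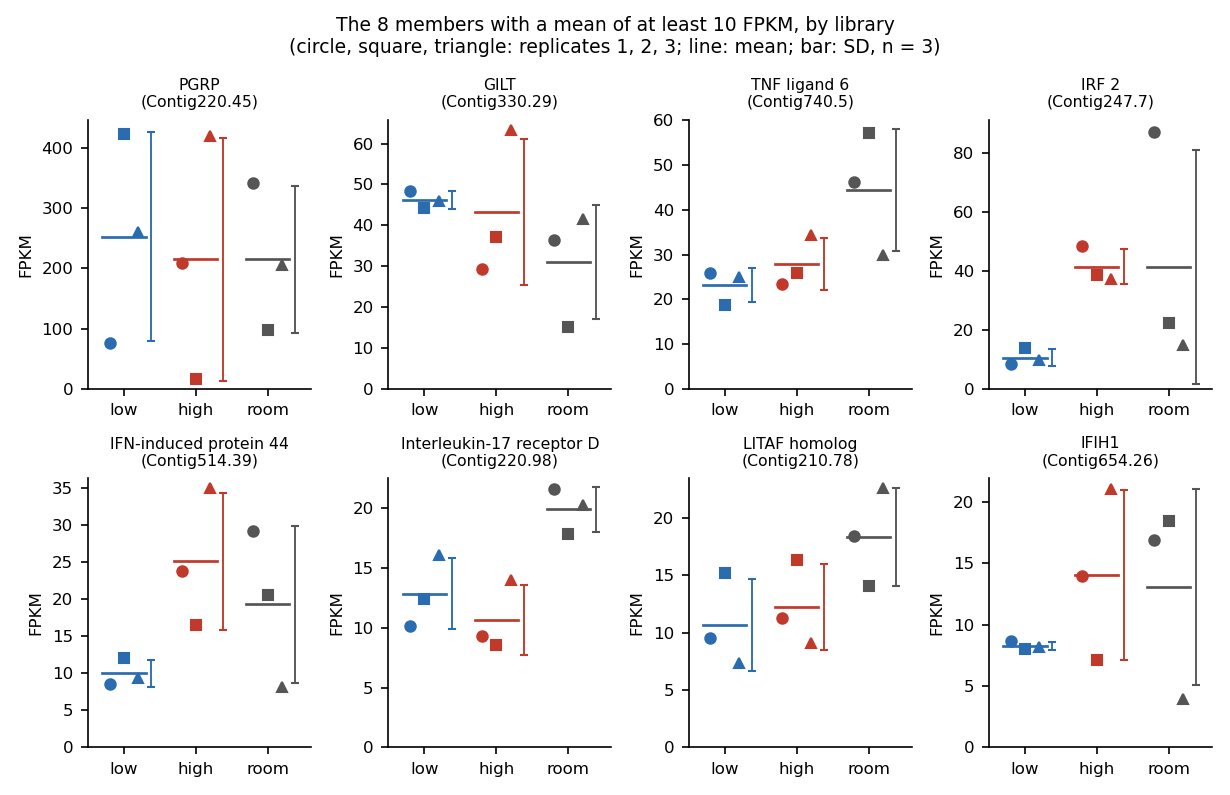
FPKM by library of the 8 members with a mean of at least 10 FPKM, with points for replicates 1 to 3 of low, high and room temperature, lines for group means and bars for the SD (n = 3). The IRF 2 match lies at 8.32 to 13.8 FPKM at low and 37.3 to 48.4 FPKM at high temperature, while its room temperature libraries spread from 14.9 to 86.9 FPKM.

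Of the 13 tested interferon-named members 0 were called, and the IRF 2 match evm.TU.Contig247.7 had the lowest p among them in both comparisons that involve low temperature. For low minus room 10 of the 13 were below 0 (median -0.25), where 4657 of all 8624 tested genes were. For high minus room 8 of the 13 were below 0 (median -0.03), where 4587 of all tested genes were, and for high minus low 8 were above 0 (median 0.18), where 4392 of all tested genes were. This IRF 2 match, on Contig247 from 245568 to 275483, was at 48.4, 38.7 and 37.3 FPKM in the high, 8.32, 13.8 and 9.82 FPKM in the low and 86.9, 22.3 and 14.9 FPKM in the room temperature libraries. Its low temperature libraries lay below all others, with a log2 difference of 1.88 for high minus low (SE 0.519, limma adjusted p = 0.2) and of -1.48 for low minus room (SE 0.519, limma adjusted p = 0.463). Without room temperature replicate 1, its highest library, high minus low passed (limma adjusted p = 0.0441), with a range of 0.0441 to 0.509 over all alternatives. Its neighbour, the IRF 1 match evm.TU.Contig247.6, was at 9.32, 2.94 and 3.97 FPKM in the high, 3.26, 4.86 and 4.51 FPKM in the low and 6.12, 11.8 and 1.41 FPKM in the room temperature libraries, with overlap.

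Of the most abundant matches to interferon-induced proteins, IFI44 was higher in every high than in every low temperature library without passing the test, and IFIH1 overlapped between all groups. IFI44, evm.TU.Contig514.39, was at 23.8, 16.5 and 34.9 FPKM in the high, 8.50, 12 and 9.40 FPKM in the low and 29.2, 20.5 and 8.13 FPKM in the room temperature libraries. High and low temperature libraries did not overlap (1.20, SE 0.424, limma adjusted p = 0.296), whereas low and room temperature libraries did (-0.74, SE 0.424, limma adjusted p = 0.693). IFIH1, a sensor of double-stranded RNA also known as MDA5 (evm.TU.Contig654.26), was at 13.9, 7.15 and 21.1 FPKM in the high, 8.65, 7.99 and 8.16 FPKM in the low and 16.9, 18.4 and 3.93 FPKM in the room temperature libraries, with overlap. The room temperature libraries themselves were spread: among the 13 tested interferon-named members, room temperature replicate 1 was the highest of its group in 9 and replicate 3 the lowest in 9. GILT, a reductase of disulfide bonds in lysosomes (evm.TU.Contig330.29), ran the other way, at 48.4, 44.1 and 46 FPKM in the low, 29.3, 37.2 and 63.4 FPKM in the high and 36.4, 15.2 and 41.7 FPKM in the room temperature libraries, without overlap between low and room (0.67, SE 0.395, limma adjusted p = 0.702). The IFI44-like match evm.TU.Contig1067.7 and the interferon-related developmental regulator 2 match evm.TU.Contig120.44 had overlapping groups in all comparisons. All 8 models matching interferon-induced very large GTPase 1 stayed at or below a mean of 0.0464 FPKM.

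Both tested GTPase IMAP models had higher means in the high than in the low temperature libraries without passing the test. IMAP family member 4, evm.TU.Contig124.24, was at 2.81, 2.50 and 1.82 FPKM in the high, 0.654, 0.805 and 0.273 FPKM in the low and 1, 1.11 and 1.24 FPKM in the room temperature libraries. It was the only tested member whose libraries were ordered low below room below high with no overlap; 0.22% of all tested genes were ordered so. The log2 difference was 1.10 for high minus low (SE 0.24, limma adjusted p = 0.114), 0.66 for high minus room (SE 0.24, limma adjusted p = 0.428) and -0.44 for low minus room (SE 0.24, limma adjusted p = 0.672). The voom log2 difference for high minus low was 2.08 (voom adjusted p = 0.0976). With array weights high minus low passed (limma adjusted p = 0.0371), and its adjusted p over all alternatives ran up to 0.543.

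IMAP family member 7, evm.TU.Contig995.27, was at 5.23, 5.72 and 1.76 FPKM in the high, 1.22, 2.10 and 0.70 FPKM in the low and 1.40, 1.59 and 1.69 FPKM in the room temperature libraries. The high temperature libraries lay above those at room temperature and overlapped with those at low temperature (1.10 for high minus low, SE 0.355, limma adjusted p = 0.259). High temperature replicate 3 was close to the room temperature libraries, and without it high minus room was 1.34 in place of 0.93 (limma adjusted p = 0.257 in place of 0.444). The summed FPKM of all 25 IMAP models was 6.65 to 14.8 in the high, 2.81 to 4.58 in the low and 4.03 to 7.86 in the room temperature libraries, so the high temperature libraries lay above all of those at low temperature. This sum (mean 6.77) includes the 2 tested models, with means of 2.38 and 1.36 FPKM. High also lay above low temperature libraries in the sums of the interferon-named (132 to 184 against 94.5 to 117 FPKM) and TNF-named classes (61.2 to 76.9 against 47.6 to 60.5 FPKM). In the other classes with reads, the sums overlapped.

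Most tested genes linked to hemocytes differed in the same direction as both tested IMAP members for low minus room and high minus low. The IMAP 7 match was at only -0.17 for low minus room (SE 0.355, limma adjusted p = 0.941), with overlapping libraries. It took the other sign in 3 of 19 alternatives. By limma 0 of the genes linked to hemocytes were called. At an unadjusted p under 0.05 there were 0 higher and 4 lower for low against room (3.35% and 4.81% of all tested genes). The counts were 0 and 0 for high against room (4.7% and 4.87%), and 4 and 0 for high against low (6.42% and 5.45%). Of 26 models in that list 4 had no reads and 9 were tested. Of these, 8 lay below 0 for low minus room (median -0.36), where 4657 of all 8624 tested genes did. For high minus low 7 lay above 0 (median 0.83), where 4392 of all tested genes did. For high minus room 5 lay above 0 and 4 below. The GATA-binding factor 2 match was higher at low than at room temperature without overlap (0.59, SE 0.285, limma adjusted p = 0.614). For high minus low it (-0.09) and a peroxidasin match (evm.TU.Contig131.104, -0.34) lay below 0. Both Runx1 matches, transcription factors of blood cell development, were at 5.86 to 7.20 FPKM in the high, 0.68 to 2.49 FPKM in the low and 4.16 to 11.6 FPKM in the room temperature libraries, and an allograft inflammatory factor 1 match (evm.TU.Contig555.51) at 12.5 to 34.5, 3.21 to 10.9 and 11.8 to 15.8 FPKM. For high minus low the Runx1 matches had limma adjusted p of 0.0763 and 0.0911 and the allograft inflammatory factor match 0.204. The most abundant gene of the list, another allograft inflammatory factor 1 match, was at 95.8 to 196 FPKM in the high, 69.2 to 99.3 FPKM in the low and 53.1 to 139 FPKM in the room temperature libraries. The list summed to 153 to 242 FPKM in the high, 89.5 to 113 FPKM in the low and 88.2 to 184 FPKM in the room temperature libraries, and its hemocytin match averaged 0.0665 FPKM. These genes are not limited to hemocytes, and their part in the values of the IRF 2, IFI44 and IMAP matches was not tested. Shell and mantle markers also lay lowest at low temperature, with sums of 13.3 to 13.7 FPKM in the high, 7.05 to 8.74 FPKM in the low and 10.1 to 20.9 FPKM in the room temperature libraries. Of those 40 models 14 had no reads, the nacrein match among them, and 2 were tested. The tyrosinase-like match evm.TU.Contig59.25, the most abundant of them, was at 9.88, 9.13 and 7.21 FPKM in the high, 2.67, 5.82 and 3.90 FPKM in the low and 8.11, 17.1 and 6.73 FPKM in the room temperature libraries. Its low temperature libraries lay below all others (0.96 for high minus low, SE 0.35, limma adjusted p = 0.306; -1.13 for low minus room, SE 0.35, limma adjusted p = 0.368), and the part of these markers was not tested. In bulk tissue, fewer cells of a type and less RNA per cell cannot be told apart.

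Groups that did not overlap were counted over the 37 tested members. For low against room, 3 members (8.11%) lay wholly higher and 5 (13.5%) wholly lower, where 6.53% and 8.74% of all tested genes did. For high against room the counts were 4 (10.8%) and 1 (2.7%), against 7.54% and 8.97% of all genes, and for high against low 4 and 1 (8.75% and 8.45% of all genes). Without both libraries that stand apart, 0 members were called, and at an unadjusted p under 0.05 there were 2 higher and 3 lower for low against room (3.91% and 5.84% of all genes), 4 and 2 for high against room (6.49% and 6.99%), and 4 and 1 for high against low (7.24% and 6.27%).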

How the data were processed

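Reads were aligned with HISAT2 2.0.4 and counted with HTSeq 0.9.1, per the submitters' processing notes; genome build, settings and strand: not given in the sources used here. FPKM and the length of 28864 gene models in 9 libraries were deposited by the authors. Value times length gave whole reads in steps of 1 size per library (no value was more than 3.66e-08 read off). The divisor was a median-of-ratios size factor times a constant, so the deposited FPKM carry a scaling between libraries.

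Members were found by words in the Swiss-Prot name. Members and lists were chosen with earlier results of these data known. limma 3.58.1 in R 4.3.3 was fitted to log2(FPKM + 1) of the 8624 models with a mean of at least 1 FPKM, all 9 libraries together, with eBayes and a trend. Adjustment was by Benjamini-Hochberg over all of them, and calls were made at 0.05. The log2 scale with a pseudocount of 1 understates changes of low genes. The script was tested on simulated data. Named were the 15 most abundant members, the 2 most abundant per class, called members, the 3 of lowest p in each direction and comparison, and all MyD88 models. Figures were drawn with matplotlib 3.10.9.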

Additional observations from a re-analysis of the deposited data

How the results depend on the processing

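Under 20 alternatives (pseudocount 0.1, no filter, a minimum of 5 FPKM, scaling to the summed FPKM or the upper quartile, array weights, robust variance, fitting 2 groups alone, a replicate block, each library left out, replicate 3 of the high and low groups left out, and voom), the count of called members was 0 in each comparison and direction with these exceptions. Array weights called 1 member higher for low minus room (PGRP SD) and 1 higher for high minus low (IMAP 4), and leaving out single libraries gave 0 to 1 called higher for high minus low (IRF 2, without room temperature replicate 1). The cause was not tested. The share of all tested genes that passed the adjusted test in these settings is not given here. At an unadjusted p under 0.05, array weights gave 5.36% of all tested genes higher for low minus room (3.35% in the main fit). For high minus low they gave 9.31% higher (6.42% in the main fit). Without room temperature replicate 1, 6.19% were higher for high minus low. The median of the members ran from -0.40 to 0 for low minus room, from -0.21 to 0.16 for high minus room and from 0.01 to 0.23 for high minus low, so the sign for high minus room depends on the setting (0.11 with scaling to the summed FPKM). Of 22 named and tested members, 9 took the other sign in at least 1 setting for low minus room, 8 for high minus room and 8 for high minus low, none of them called. Libraries with the same number shared a correlation of deviations from -0.10 to 0.24, over 0.1 in 3 of 9 pairs. Libraries with different numbers ran from -0.22 to 0.12. The labels state no pairing, and the main fit had no replicate block. The replicate block called 0 members, with a median of -0.20 for low minus room. With it, the MyD88 match evm.TU.Contig313.18 had an SE of 0.221 in place of 0.38 for high minus room (limma adjusted p = 0.412 in place of 0.66). Depth limits the members near 1 FPKM most: the PGRP SD match rests on 2 to 34 reads per library.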
